A study of Rattus norvegicus with 20 samples.

Results

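The 45 genes described here are interferon-stimulated genes, the antiviral effectors, sensors, modifiers, transcription factors and chemokines that cells switch on after interferon binds its receptors. They were taken by symbol from a gene table of rat lung. All 45 were among the table's 19060 genes, and 44 had enough counts to be tested with the other genes, 14794 in all; the exception was Cxcl11. After cecal ligation and puncture (CLP), a model of abdominal sepsis, 17 of the 44 were lower in lung than after a sham operation. That was 38.6% of them, and 0 were higher, where 20.5% of all tested genes were lower and 19.8% higher. The excess was smaller without Sham replicate 2, an animal described below, with 11 lower (25%, against 18.8% of all tested genes). With the replicate number added to the fit as a block, 8 were lower (18.2%, against 15.8% of all tested genes).

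Lung RNA was sequenced from 20 rats, 1 library per animal and 5 animals per group. The 4 groups were CLP with stimulation of the right cervical vagus nerve (CLP+VNS), CLP alone, a sham operation with the same stimulation (Sham+VNS), and a sham operation alone (Sham). In the CLP groups the cecum was tied off and pierced, which the study used to induce acute respiratory distress syndrome (ARDS). In the sham groups the abdomen was opened and the cecum only handled, so every animal had undergone a laparotomy. The sources used here do not give strain, age, sex, the settings of the stimulation or the time from operation to sampling. Total counts per library ran from 13729646 to 14453181. Summed alveolar type 2 markers stood at 21053.9 to 37623.3 CPM and endothelial markers at 3291.8 to 5583.9 CPM over the 20 libraries. CPM is a gene's count relative to the total count of its library, with library sizes scaled by edgeR's TMM method.

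Type I interferons act through the receptor Ifnar1 and Ifnar2, whose kinases Jak1 and Tyk2 activate Stat2 and its partners. With Irf9 it takes part in ISGF3, the factor that binds the interferon-stimulated response element (ISRE) in front of genes such as the Mx, Oas and Ifit families. Interferon gamma acts through Ifngr1 and Ifngr2 and leads to binding at the gamma-activated site (GAS) before genes such as Irf1, the guanylate-binding proteins and Cxcl9. In lung, epithelium, endothelium, macrophages and lymphocytes all answer to interferon.

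Promoter windows from RefSeq, build GRCr8, were available for 35 of the 45 members and reach from 250 bases before the annotated gene start to 50 after it. Ifit1, Ifit2, Mx2, Oas2, Rtp4, Ddx58, Dhx58, Zbp1, Isg15 and Usp18 had no entry. The ISRE core (TTTC, any 2 bases, TTTC), searched on both strands, was present in 23 of the 35 windows (65.7%), against 3.92% of 33469 rat windows. Among the 12 windows of members that were lower after CLP it was present in 10, and among the other 23 in 13. The GAS core TTCNNNGAA, also on both strands, was present in 11 of 35 windows (31.4%), against 8.87% of all, with 2 of the 12 and 9 of the other 23. A core of the NF-kappaB site (GGG, any 2 bases, TTTCC), again on both strands, was present in 1 of 35 (2.86%), against 1.53% of all. In Bst2 an ISRE match and a GAS match overlap. A match is a description of the letters and says nothing of whether a factor was bound.

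The following 30-base stretches show the ISRE match nearest the end of the window in the 10 members that were lower after CLP and had one. Capitals mark the match, which reads GAAA, any 2 bases, GAAA where it lies on the other strand, and all are written on the gene's own strand. In Oas1b 2 matches overlap. The windows of Gbp4 (chr2:233978236-233978535), Xaf1 (chr10:57415685-57415984), Ifi44l (chr2:243328473-243328772), Ifi27 (chr6:128355062-128355361) and Eif2ak2 (chr6:21940904-21941203) are on the plus strand. Those of Ifi44 (chr2:243303791-243304090), Oasl2 (chr12:47383136-47383435) and Lgals3bp (chr10:104127799-104128098) are on the minus strand.
Oas1b: ccggGAAATGGAAACTGAAAaccctattta
Gbp5: acttgtgtagTTTCAATTTCagtttagagg
Gbp4: agaagcagggTTTCGATTTCggttcccttt
Xaf1: tgtgtgcaaaGAAACAGAAActccaccgaa
Ifi44: aagtttctctTTTCGTTTTCtgcaggcttg
Ifi44l: ttccagtgagGAAAATGAAAgtaaagggca
Oasl2: aaagctttggTTTCAGTTTCcaggcttgag
Ifi27: gagagctgggGAAATGGAAActtacctcat
Lgals3bp: gtgttttctgGAAATCGAAActagactagg
Eif2ak2: agtccgccggGAAAACGAAAcagagagaac

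The whole window is shown for Oas1b and Gbp5, the 2 most lowered members with values given per animal whose window was available and held a match, and for the transcription factor Irf1, which did not pass the test and whose window held a GAS match alone. Capitals mark ISRE and GAS matches. The Oas1b window is chr12:41395803-41396102 on the minus strand, with its GAS match 213 bases and its last ISRE match 53 bases before the gene start. The Gbp5 window is chr2:233910749-233911048 on the plus strand, with its ISRE match 56 bases before the start. The Irf1 window is chr10:38417685-38417984 on the plus strand, with its GAS match 142 bases before the start.
Oas1b: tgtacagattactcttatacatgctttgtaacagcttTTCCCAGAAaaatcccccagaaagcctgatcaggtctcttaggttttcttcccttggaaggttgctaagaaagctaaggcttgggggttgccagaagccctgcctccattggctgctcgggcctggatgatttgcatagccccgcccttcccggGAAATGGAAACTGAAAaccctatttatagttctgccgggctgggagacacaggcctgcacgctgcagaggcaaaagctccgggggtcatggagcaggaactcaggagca
Gbp5: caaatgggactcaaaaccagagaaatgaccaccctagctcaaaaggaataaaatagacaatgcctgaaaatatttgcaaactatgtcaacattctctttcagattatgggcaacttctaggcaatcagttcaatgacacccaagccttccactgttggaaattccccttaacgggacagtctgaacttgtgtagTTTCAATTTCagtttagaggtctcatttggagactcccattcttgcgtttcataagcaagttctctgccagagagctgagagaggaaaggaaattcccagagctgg
Irf1: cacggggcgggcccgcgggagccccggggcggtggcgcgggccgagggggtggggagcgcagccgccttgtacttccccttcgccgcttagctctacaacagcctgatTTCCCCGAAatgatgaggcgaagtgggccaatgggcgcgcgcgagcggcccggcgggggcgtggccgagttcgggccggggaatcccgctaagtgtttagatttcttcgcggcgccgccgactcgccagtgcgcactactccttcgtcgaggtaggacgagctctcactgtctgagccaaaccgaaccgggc

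1 animal stood apart in these genes and bears on every comparison with the Sham group. In Sham replicate 2, 35 of the 44 tested members were at their highest of the 5 Sham libraries, whereas 18.6% of all tested genes were. For 27 of the 44 it was the highest of all 20 libraries. Its median member was 0.70 above the gene's mean over the 20 libraries on the log2 scale, the next being Sham+VNS replicate 4 at 0.36, and its median over all tested genes was 0.0044. Its summed markers of T cells (128 CPM, against 120 to 186 in the other 4 Sham libraries), plasmacytoid dendritic cells (120, against 110 to 126) and neutrophils (563, against 375 to 1015.7) lay within the range of the other Sham animals, and those of monocytes and macrophages (13439.2, against 13873.8 to 18848.4) just below it. Most fold changes and counts in CLP against Sham are therefore followed by their value without this library, for single genes or for a list as a whole. In Sham+VNS against Sham and in the interaction, values of single genes are mostly given with all libraries only.

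**Figure D1:**
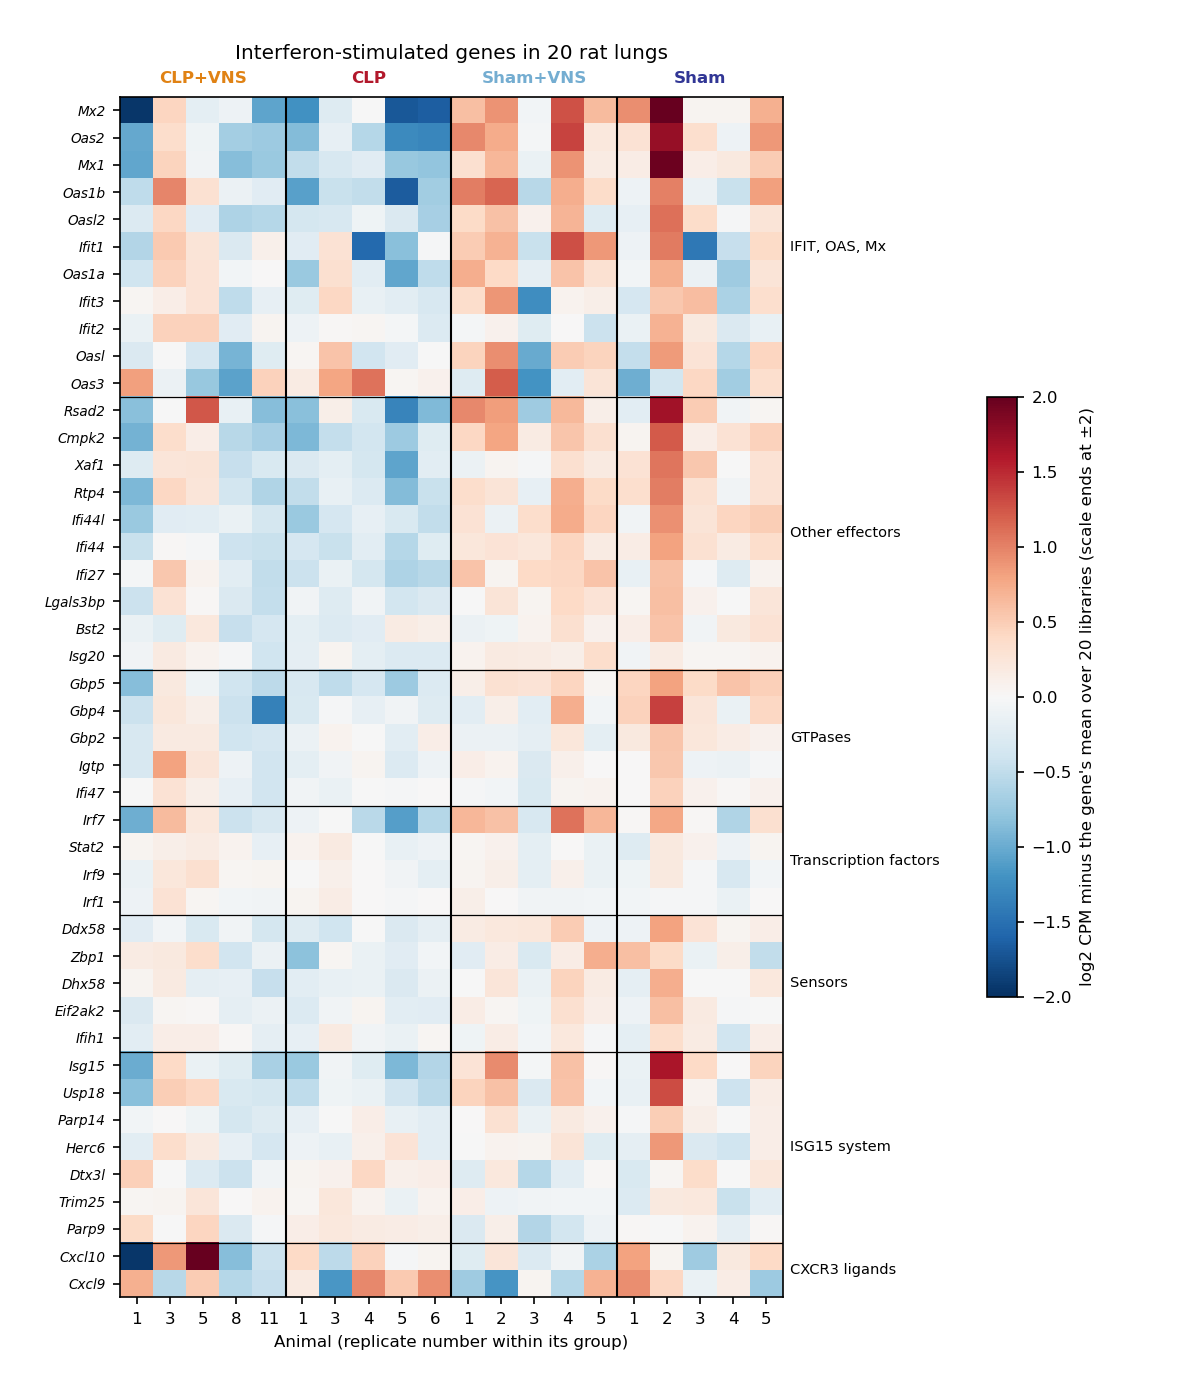
Each cell is the log2 CPM of 1 of the 44 tested members (rows, grouped by role) in 1 animal (columns, 5 per group) minus the gene's mean over the 20 libraries; red is above and blue below that mean. Sham replicate 2 is the reddest column, with 27 members at their highest of all 20 libraries, and most effector genes are bluer in the CLP groups.

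On the per-length scale of TPM, which allows levels to be compared between genes, the members spanned a wide range. Bst2, a membrane protein that tethers budding virions, averaged 673 TPM over the 20 libraries and Ifi27 389 TPM. Irf1 followed at 77.2 TPM and Lgals3bp at 66.2 TPM. At the other end stood Gbp4 and Cxcl10 at 2.64 TPM each, Oas3 at 2.49 TPM, Zbp1 at 1.97 TPM and Cxcl11 at 0.334 TPM. Bst2 stood at 570 ± 97.7 TPM in CLP+VNS, 609 ± 81.8 in CLP, 705 ± 93.9 in Sham+VNS and 808 ± 147 in Sham (SD, n = 5 each), spreads that overlap.

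CLP against Sham asks what abdominal sepsis did to these genes in the unstimulated lung. The 17 members that fell (38.6% of 44) stood against a background of 20.5% of all tested genes called lower and 19.8% called higher, or 40.3% in either direction, by edgeR's quasi-likelihood test at an adjusted p below 0.05 (Benjamini-Hochberg over the 14794 genes). The log2 fold change was negative for 36 members (81.8%), against 52.1% of all tested genes, and its median was -0.38 over the members and -0.01 over all tested genes. The libraries of the 2 groups did not overlap for 11 of the lower members (25%, against 12.7% of all tested genes). In the higher direction this was so for 1 member, Parp9 (2.27%, against 13.4% of all tested genes), which did not pass the test. Without Sham replicate 2, 11 members were called lower (25%, against 18.8% of all genes), 0 were called higher, and the median was -0.20 with 32 of 44 negative. The 11 still called were Mx1, Mx2, Oas2, Cmpk2, Ifi44, Ifi44l, Rtp4, Xaf1, Gbp5, Ddx58 and Isg15. Oas1b, Oasl2, Ifi27, Lgals3bp, Gbp4 and Eif2ak2 no longer passed, with log2 fold changes of -0.95 to -0.16.

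Among the 11 IFIT, OAS and Mx genes, 5 fell after CLP (3 without Sham replicate 2), against 20.5% of all tested genes (18.8% without it). The Mx proteins are GTPases that trap viral nucleocapsids, and the OAS enzymes make the oligoadenylates that switch on RNase L. Mx2 read 8.73, 46.2, 29.8, 31.9 and 16.3 CPM in the 5 CLP+VNS lungs, 14.6, 28.5, 34.0, 10.4 and 10.8 CPM in the CLP lungs, 51.7, 63.9, 32.8, 82.9 and 53.2 CPM in the Sham+VNS lungs and 65.3, 204, 35.3, 35.4 and 55.8 CPM in the Sham lungs. All CLP lungs lay below all Sham lungs, although the highest CLP value was close to the lowest Sham one, and 1 Sham animal stood far above the others. The log2 fold change, CLP against Sham, was -2.01 ± 0.53 (SE, adjusted p = 0.00557), and without Sham replicate 2 it was -1.28 ± 0.43 (adjusted p = 0.0249).

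Oas2 read 3.06, 8.18, 5.98, 3.92 and 3.79 CPM in CLP+VNS, 3.43, 5.65, 4.27, 2.56 and 2.50 CPM in CLP, 12.5, 10.8, 6.18, 16.6 and 7.39 CPM in Sham+VNS and 7.83, 21.6, 8.06, 5.91 and 11.8 CPM in Sham. Here too no CLP lung reached a Sham lung. Oas2 had a log2 fold change of -1.58 ± 0.37 (adjusted p = 0.00232), and -1.19 without Sham replicate 2.

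Mx1 read 9.77, 27.5, 19.3, 11.2 and 12.1 CPM in CLP+VNS, 14.4, 16.2, 17.2, 11.9 and 11.6 CPM in CLP, 25.3, 32.2, 18.5, 37.8 and 22.7 CPM in Sham+VNS and 22.5, 79.3, 22.1, 23.2 and 28.9 CPM in Sham. The CLP lungs were all below the Sham lungs, and the other 4 Sham lungs were close together. Its log2 fold change was -1.30 ± 0.36 (adjusted p = 0.00687), and -0.76 without Sham replicate 2.

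Oas1b read 6.04, 17.1, 10.7, 7.98 and 7.37 CPM in CLP+VNS, 4.00, 6.29, 6.08, 2.64 and 5.29 CPM in CLP, 17.6, 19.5, 5.83, 14.4 and 11.2 CPM in Sham+VNS and 8.04, 17.5, 7.99, 6.33 and 15.3 CPM in Sham. The groups CLP and Sham were parted by a narrow gap, between 6.29 and 6.33 CPM. Its log2 fold change was -1.18 ± 0.37 (adjusted p = 0.0152). Without Sham replicate 2 it was -0.95 and just missed the threshold (adjusted p = 0.0511).

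Oasl2 was the fifth, at -0.72 (adjusted p = 0.0221), and it was not called without Sham replicate 2 (-0.46, adjusted p = 0.0929). The other 6 genes of this group did not pass: Ifit1, Ifit2 and Ifit3, which bind foreign 5′ RNA ends and the translation machinery, had log2 fold changes of -0.45, -0.18 and -0.26, Oas1a -0.45, Oasl -0.16 and Oas3 0.66. These were, without Sham replicate 2, -0.08, 0.02, -0.15, -0.24, 0.06 and 0.61 in the same order, so that Ifit2 and Oasl turned sign. Near-identical family members such as Oas1a and Oas1b, or the guanylate-binding proteins, can share reads, and the sources used here do not say how such reads were divided, so values of single family members are uncertain in that respect.

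**Figure D2:**
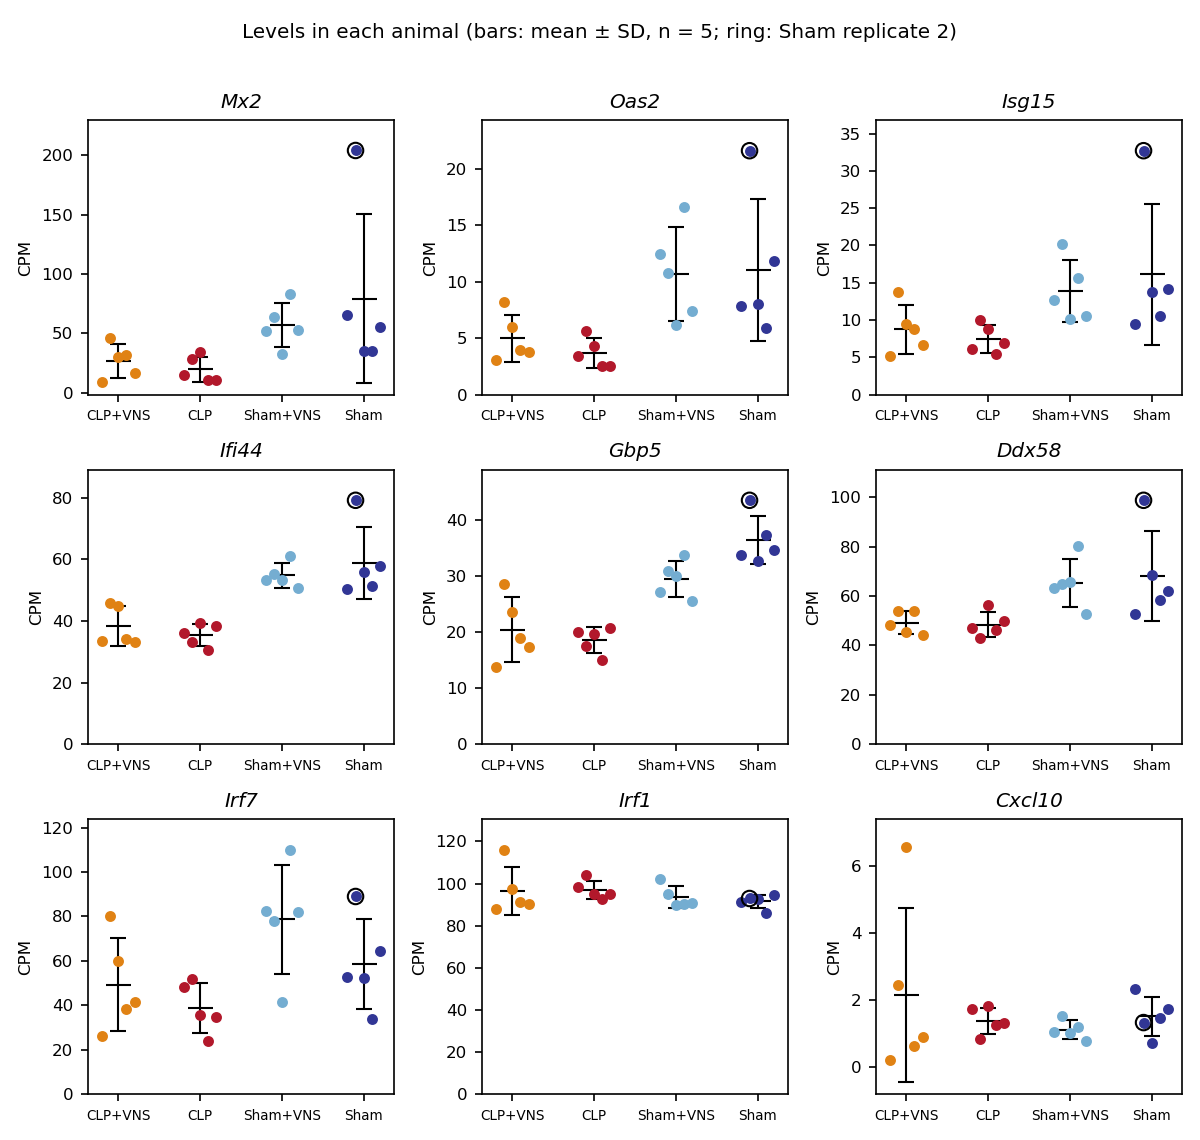
CPM in each of the 20 animals for 9 members; points are animals, bars the mean ± SD of 5 animals, and the ring marks Sham replicate 2. For Mx2, Oas2, Ifi44 and Gbp5 every CLP point lies below every Sham point, whereas Irf1 stays between 86.1 and 116 CPM in all groups.

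Of the 10 other antiviral effectors, 7 fell after CLP (5 without Sham replicate 2), against 20.5% of all tested genes (18.8% without it). Cmpk2, a mitochondrial nucleotide kinase whose gene is induced beside Rsad2, read 7.69, 18.9, 16.3, 10.1 and 9.34 CPM in CLP+VNS, 7.93, 10.7, 11.4, 8.94 and 12.6 CPM in CLP, 19.8, 25.7, 16.7, 21.9 and 18.7 CPM in Sham+VNS and 15.4, 34.8, 16.3, 18.2 and 20.6 CPM in Sham. No CLP lung reached a Sham lung, and the log2 fold change was -1.03 ± 0.25 (adjusted p = 0.00273), and -0.77 without Sham replicate 2.

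Xaf1, a pro-apoptotic partner of the inhibitor XIAP, read 19.2, 27.3, 27.4, 16.7 and 18.5 CPM in CLP+VNS, 18.8, 20.1, 18.0, 11.0 and 19.9 CPM in CLP, 21.2, 23.8, 22.6, 28.8 and 26.0 CPM in Sham+VNS and 28.2, 48.5, 33.5, 22.9 and 28.2 CPM in Sham. CLP lungs were again all below Sham lungs, with 1 CLP animal clearly under the rest. Its log2 fold change was -0.88 ± 0.20 (adjusted p = 0.00152), and -0.68 without Sham replicate 2.

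Rtp4, a chaperone of membrane receptors that also restrains viral replication, read 14.5, 36.4, 32.3, 21.2 and 18.0 CPM in CLP+VNS, 19.3, 24.5, 22.4, 14.9 and 19.9 CPM in CLP, 34.9, 32.8, 24.3, 45.3 and 35.5 CPM in Sham+VNS and 34.6, 55.9, 33.8, 26.0 and 33.4 CPM in Sham. The CLP and Sham lungs did not overlap, and the log2 fold change was -0.86 ± 0.24 (adjusted p = 0.00778), and -0.66 without Sham replicate 2.

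Ifi44l, an interferon-induced protein that restrains several viruses, read 14.1, 20.3, 20.5, 21.6 and 18.6 CPM in CLP+VNS, 14.1, 18.8, 21.2, 19.3 and 16.9 CPM in CLP, 28.9, 21.8, 30.4, 39.8 and 31.9 CPM in Sham+VNS and 22.7, 44.8, 28.3, 32.0 and 33.6 CPM in Sham. Each CLP group stayed below its own sham group without overlap. Ifi44l had a log2 fold change of -0.84 ± 0.17 (adjusted p = 0.00073), and -0.69 without Sham replicate 2. Its neighbour and relative Ifi44 fell by 0.73 (adjusted p = 9.81e-05), or by 0.60 without Sham replicate 2, at 30.6 to 39.2 CPM in CLP and 50.5 to 79.1 CPM in Sham.

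Lgals3bp and Ifi27 fell less, with log2 fold changes of -0.41 (adjusted p = 0.0232) and -0.49 (adjusted p = 0.0303), and neither was called without Sham replicate 2 (-0.30 and -0.33). Bst2, Isg20 and Rsad2 did not pass. Rsad2, or viperin, which makes a chain-terminating nucleotide, lay just outside the threshold at -1.15 ± 0.45 (adjusted p = 0.0502), and its value without Sham replicate 2 was -0.66.

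The 5 GTPases that coat the vacuoles of pathogens and damaged membranes included 2 that fell (1 without Sham replicate 2). Of all tested genes 20.5% fell (18.8% without it). Gbp5, which also promotes inflammasome assembly, read 13.8, 28.7, 23.6, 19.0 and 17.4 CPM in CLP+VNS, 20.0, 17.5, 19.7, 15.0 and 20.7 CPM in CLP, 27.3, 31.0, 30.1, 33.8 and 25.6 CPM in Sham+VNS and 33.9, 43.6, 32.7, 37.4 and 34.8 CPM in Sham. The CLP lungs stood well clear of the Sham lungs. Its log2 fold change of -0.97 ± 0.15 had the lowest adjusted p of the 44 members (4.21e-05), and without Sham replicate 2 it was -0.90 (adjusted p = 0.00018).

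Gbp4 read 3.06, 4.88, 4.54, 3.07 and 1.54 CPM in CLP+VNS, 3.36, 4.10, 3.69, 3.96 and 3.46 CPM in CLP, 3.59, 4.52, 3.57, 7.00 and 4.01 CPM in Sham+VNS and 5.79, 11.0, 4.94, 3.80 and 5.60 CPM in Sham. The lowest Sham lung lay among the CLP lungs and the other 4 above them, and the log2 fold change was -0.74 ± 0.29 (adjusted p = 0.0442). Without Sham replicate 2 it was -0.44 (adjusted p = 0.198). Gbp2 and the immunity-related GTPases Ifi47 and Igtp had log2 fold changes of -0.27, -0.19 and -0.20 (-0.18, -0.09 and -0.05 without Sham replicate 2) and did not pass.

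Of the 5 nucleic acid sensors, 2 fell (1 without Sham replicate 2), against 20.5% of all tested genes (18.8% without it). Ddx58, which encodes RIG-I and detects uncapped viral RNA, read 48.3, 54.1, 45.5, 53.8 and 44.1 CPM in CLP+VNS, 47.1, 42.9, 56.2, 46.2 and 49.9 CPM in CLP, 63.1, 65.0, 65.7, 80.1 and 52.7 CPM in Sham+VNS and 52.7, 98.7, 68.5, 58.5 and 62.0 CPM in Sham. The CLP values overlapped the lowest Sham values. Its log2 fold change was -0.49 ± 0.14 (adjusted p = 0.00815), and -0.32 without Sham replicate 2 (adjusted p = 0.0237).

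Eif2ak2, which encodes the double-stranded RNA kinase PKR, read 56.0, 70.7, 70.1, 60.9 and 63.6 CPM in CLP+VNS, 57.0, 65.5, 71.1, 59.2 and 59.0 CPM in CLP, 76.1, 70.7, 65.0, 86.2 and 75.7 CPM in Sham+VNS and 64.1, 104, 78.1, 68.0 and 68.6 CPM in Sham. The ranges of CLP and Sham overlapped. Its log2 fold change was -0.30 ± 0.11 (adjusted p = 0.0429) and -0.16 without Sham replicate 2 (adjusted p = 0.165). Dhx58, Zbp1 and Ifih1, the MDA5 gene, had log2 fold changes of -0.37, -0.38 and -0.07 (-0.19, -0.31 and 0.03 without Sham replicate 2) and did not pass.

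In the ISG15 system, 1 of 7 genes fell, with and without Sham replicate 2, against 20.5% of all tested genes (18.8% without it). Isg15, the ubiquitin-like modifier itself, read 5.15, 13.8, 9.44, 8.77 and 6.60 CPM in CLP+VNS, 6.15, 9.96, 8.76, 5.5 and 6.91 CPM in CLP, 12.7, 20.2, 10.2, 15.6 and 10.6 CPM in Sham+VNS and 9.53, 32.7, 13.8, 10.5 and 14.2 CPM in Sham. CLP and Sham overlapped by a narrow margin, at 9.96 and 9.53 CPM. Isg15 had a log2 fold change of -1.11 ± 0.32 (adjusted p = 0.0101), and -0.69 without Sham replicate 2 (adjusted p = 0.0462). Its deconjugating protease Usp18 did not pass at -0.66 (adjusted p = 0.088), and had -0.26 without Sham replicate 2. The ligases Herc6 and Trim25, and Dtx3l, Parp9 and Parp14 of the ADP-ribosylation machinery, had log2 fold changes of -0.23 to 0.17 (-0.13 to 0.22 without Sham replicate 2) and did not pass.

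In CLP against Sham the 4 transcription factors showed no call by edgeR, at an adjusted or an unadjusted p below 0.05, nor by DESeq2, and 0 were called without Sham replicate 2. Irf7, the factor that amplifies interferon alpha transcription and is itself interferon-induced, read 26.2, 80.1, 59.9, 38.4 and 41.5 CPM in CLP+VNS, 48.2, 51.6, 35.4, 24 and 34.8 CPM in CLP, 82.3, 77.8, 41.4, 110 and 82.1 CPM in Sham+VNS and 52.7, 89.0, 52.4, 33.9 and 64.6 CPM in Sham. Animals of each group were widely spread and CLP overlapped Sham. Irf7 had a log2 fold change of -0.59 ± 0.31 (adjusted p = 0.136), and -0.39 without Sham replicate 2. In CLP+VNS against Sham+VNS its value was -0.68 ± 0.31, with an unadjusted p of 0.0391 and an adjusted p of 0.111 by edgeR.

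Irf1, a transcription factor that answers strongly to interferon gamma, read 88.1, 116, 97.2, 91.2 and 90.4 CPM in CLP+VNS, 98.2, 104, 95.2, 92.5 and 95 CPM in CLP, 102, 95, 89.9, 90.2 and 90.7 CPM in Sham+VNS and 91.2, 92.9, 92.6, 86.1 and 94.6 CPM in Sham. Its 4 groups overlapped and the log2 fold change was 0.09 ± 0.06, the same without Sham replicate 2. In Sham replicate 2, where most members peaked, Irf1 (92.9 CPM) lay within the range of the other Sham animals.

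Irf9 read 59.6, 76.2, 81.8, 67.1 and 67.8 CPM in CLP+VNS, 64.8, 70.1, 65.4, 61.9 and 57.2 CPM in CLP, 67.6, 70.5, 57.1, 70.5 and 59.8 CPM in Sham+VNS and 61.7, 75.2, 64.0, 52.1 and 63.1 CPM in Sham. Stat2 read 89.9, 93.8, 97.7, 90.9 and 77.4 CPM in CLP+VNS, 91.1, 98.4, 86.2, 78.3 and 80.8 CPM in CLP, 89.4, 92.0, 76.2, 87.3 and 79.1 CPM in Sham+VNS and 72.5, 99.1, 91.9, 81.1 and 89.8 CPM in Sham. Both overlapped across all groups, with log2 fold changes of 0.02 ± 0.09 and 0.0012 ± 0.08 (0.09 and 0.05 without Sham replicate 2), and scaling by total count alone turned the sign of both (-0.03 and -0.05).

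The CXCR3 ligands Cxcl9, Cxcl10 and Cxcl11, which draw activated T cells and natural killer cells, were among the members with low levels. Summed over 5 libraries, Cxcl9 had 69 to 110 counts per group, Cxcl10 80 to 150 and Cxcl11 4 to 22. Cxcl9 ran from 0.424 to 2.32 CPM in CLP and 0.622 to 2.26 CPM in Sham, and Cxcl10 from 0.848 to 1.81 CPM in CLP and 0.726 to 2.33 CPM in Sham. Their log2 fold changes of 0.25 ± 0.45 and -0.13 ± 0.57 were smaller than their errors, as were the 0.30 and -0.17 without Sham replicate 2. In CLP+VNS, Cxcl10 ran from 0.224 to 6.56 CPM, the widest spread of any group. Cxcl11 averaged 0.0576 CPM in CLP and 0.31 CPM in Sham (exact two-sided permutation test of 5 against 5, p = 0.0238, adjusted p = 0.0952 over 4 such tests).

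**Figure D3:**
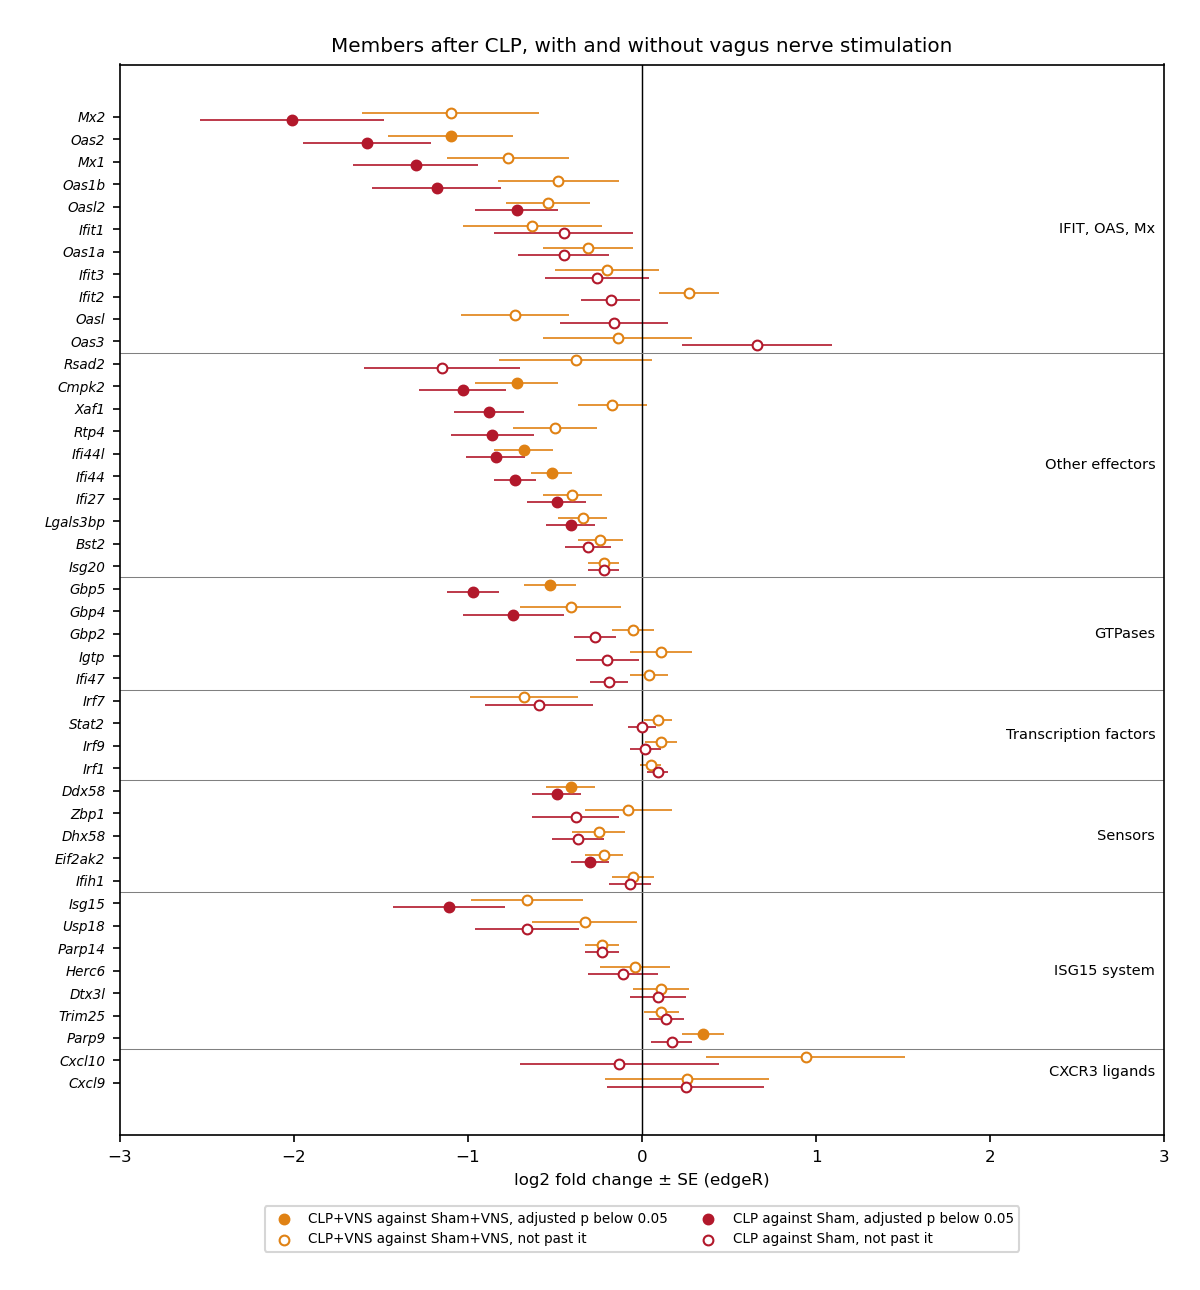
The log2 fold change ± SE of the 44 tested members, by role, for CLP+VNS against Sham+VNS (orange) and CLP against Sham (red); filled points pass an adjusted p below 0.05 in edgeR. All effectors other than Oas3 (0.66) in CLP against Sham and Ifit2 (0.27) in CLP+VNS against Sham+VNS lie left of 0. Each of the 17 members called in CLP against Sham lies nearer to 0 in the stimulated animals, but they were picked by their values in CLP against Sham. Without Sham replicate 2 this no longer holds for several of them. Ddx58 then has -0.32 in CLP against Sham, nearer to 0 than in the stimulated animals. The same goes for Oasl2 (-0.46), Ifi27 (-0.33), Lgals3bp (-0.30) and Eif2ak2 (-0.16). Their mean CPM in CLP+VNS was 0.687, 0.758, 0.789 and 0.86 of that in Sham+VNS.

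CLP+VNS against Sham+VNS sets the same operations side by side in stimulated animals and shares no library with the comparison above. Here 6 of 44 members fell (13.6%, against 13.4% of all tested genes) and 1 rose (2.27%, against 13.9%), where 27.3% of all genes were called in either direction. The share called lower was thus close to the background. The median log2 fold change was -0.25, with 33 of 44 negative, and 2 members (4.55%) had groups that did not overlap in the lower direction, against 9.23% of all genes, and 0 in the higher one, against 9.65%. The 6 were Oas2 (-1.10 ± 0.36, adjusted p = 0.0301), Cmpk2 (-0.72 ± 0.24, adjusted p = 0.0345), Ifi44l (-0.68 ± 0.17, adjusted p = 0.0055), Gbp5 (-0.53 ± 0.15, adjusted p = 0.0114), Ifi44 (-0.52 ± 0.12, adjusted p = 0.0033) and Ddx58 (-0.41 ± 0.14, adjusted p = 0.0323). All 6 had also fallen in CLP against Sham, where 17 were called, and all 17 had a negative value here; of the 3029 genes called lower in CLP against Sham, 1638 were called lower here. Parp9, the member that rose, is named after its value was seen. It ran from 94.7 to 156 CPM in CLP+VNS and from 76.9 to 125 CPM in Sham+VNS, overlapping, with a log2 fold change of 0.35 ± 0.12 (adjusted p = 0.0403), and in CLP against Sham it had 0.17 ± 0.12 (adjusted p = 0.293). The count hinged on single animals: without CLP+VNS replicate 3, the library in which 28 members were at their highest of that group, 13 members fell (29.5%, against 12.9% of all genes), among them Irf7 at -0.93 (adjusted p = 0.031). Without Sham+VNS replicate 4, CLP+VNS replicate 1 or CLP+VNS replicate 11 the count was 3. Parp9 was not called without Sham+VNS replicate 1, 3 or 4 or CLP+VNS replicate 1 or 5.

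Averaged over stimulated and unstimulated animals, an added contrast of 10 CLP-operated against 10 sham-operated lungs chosen after seeing the data, 22 of 44 members were lower (50%, against 24.7% of all tested genes) and 1 was higher (2.27%, against 23.8%). Without Sham replicate 2 the counts were 21 lower (47.7%, against 23.9%) and 1 higher, against 23.1% of all genes. Beyond the 17 named above, Irf7 (-0.64 ± 0.22, adjusted p = 0.0213), Dhx58 (-0.31), Bst2 (-0.28), Parp14 (-0.23) and Isg20 (-0.22) passed. The higher gene was again Parp9 (0.26 ± 0.09, adjusted p = 0.0185).

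CLP+VNS against CLP asks what vagus nerve stimulation did in the septic lung. By edgeR 0 of 44 members passed, as did 4 of the 14794 tested genes (0.027%), and DESeq2 called 0 members too. The number of genes called was not stable, with 128 by DESeq2 and 277 by edgeR without CLP+VNS replicate 1, and 0 members were called in either. The groups failed to overlap for 0 members in either direction, against 1.12% of all genes higher and 1.14% lower. At an unadjusted p below 0.05 there were 2 members, Oas1b with 1.02 ± 0.37 (adjusted p = 0.254) and Ifi27 with 0.42 ± 0.17 (adjusted p = 0.3). The members' log2 fold changes had a median of 0.12 and 33 of 44 were positive, against a median of 0.0041 over all tested genes, but without CLP+VNS replicate 3 the members' median was 0.01, and without CLP+VNS replicate 5 it was 0.06. In Mx2 and Irf7, CLP+VNS replicate 3 reached 46.2 and 80.1 CPM where the lowest animal of the same group had 8.73 and 26.2 CPM.

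Sham+VNS against Sham, the effect of stimulation without sepsis, called 0 members and 0 of all tested genes by edgeR; 1 member had an unadjusted p below 0.05, Gbp2 with -0.32 ± 0.12 (adjusted p = 0.596), and DESeq2 called 0 members. The members' median was -0.05 with all libraries and 0.11 without Sham replicate 2, and it was 0.01 without Sham+VNS replicate 3, so its sign rested on single animals. Mx2 itself had -0.48 with all libraries, 0.25 without Sham replicate 2 and -0.33 without Sham+VNS replicate 3, none of them called. The interaction, the stimulation effect in CLP animals minus that in sham animals, also called 0 members and 0 genes by edgeR and 0 members by DESeq2, with 2 members at an unadjusted p below 0.05, Xaf1 (0.71 ± 0.28, adjusted p = 0.544) and Gbp5 (0.44 ± 0.21, adjusted p = 0.594). A test that does not pass does not show that the operation effect was the same in stimulated and unstimulated animals.

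**Figure D4:**
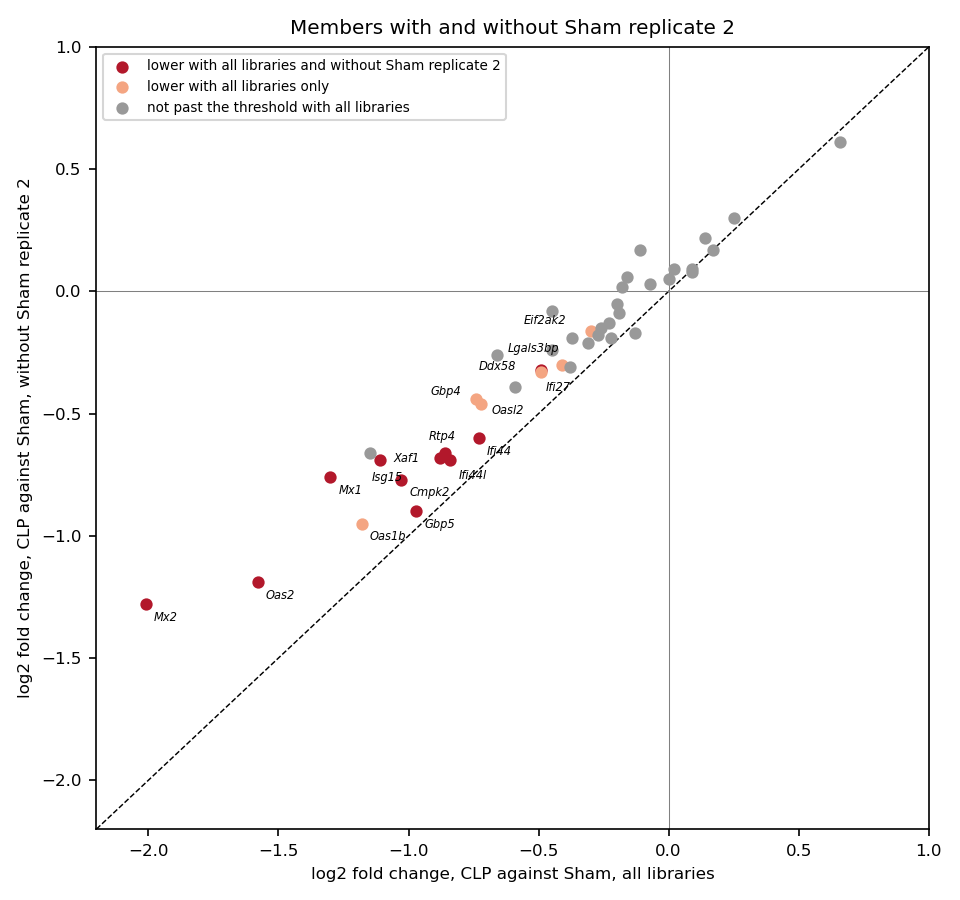
The log2 fold change of each tested member in CLP against Sham with all libraries (horizontal) and without Sham replicate 2 (vertical); the dashed line marks equal values. For 39 of the 44 members the point lies above the line, and 11 of the 17 members called with all libraries (dark red) are still called.

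Animals of the same group were spread more widely in these genes than in the median gene. The median SD of log2 CPM over the 44 members was 0.33 in CLP+VNS, 0.20 in CLP, 0.25 in Sham+VNS and 0.397 in Sham, against 0.15, 0.14, 0.15 and 0.159 over all tested genes, which were not matched in level. Without replicate 2 the Sham value was 0.225. CLP replicate 3 was the highest of its group for 22 of the 44 members (24% of all tested genes) and the lowest for 5 (22.4%). Sham+VNS replicate 4 was the highest for 20 (23.3% of all genes) and the lowest for 0, and Sham+VNS replicate 3 was the lowest for 27 (21.4% of all genes) and the highest for 0.

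Of the 45 members, 19 had 1 transcript in the deposited transcript table and 26 had more. The share of Irf7 counts assigned to transcript XM_006230540 was 44.7% to 80.6% in CLP+VNS, 75.5% to 90.1% in CLP, 54.4% to 70.4% in Sham+VNS and 35.7% to 70.1% in Sham. For NM_001033691 it was 11.1% to 32.0% in CLP+VNS, 0% to 13.9% in CLP, 22.4% to 34.2% in Sham+VNS and 15.7% to 44.8% in Sham. Every CLP animal thus lay above every Sham animal for the first transcript and below for the second. This was not particular to Irf7: the share of Usp18 transcript XM_039107665 was 0% to 5.88% in CLP and 7.38% to 18.5% in Sham. How many of all transcripts part CLP from Sham in this way was not counted. These shares are estimates from reads that the transcripts have in common, and no test was made on them. For Gbp4, with 2 transcripts, either share ran from 0% to 100% among the CLP+VNS animals, at a mean of 47.4 counts for the gene per library.

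The ligands were at the lower limit of the data. Of 11 interferon genes listed, 6 were in the table and none passed the count filter: Ifna1 averaged 0.187 CPM in CLP+VNS, 0.13 in CLP, 0.266 in Sham+VNS and 0.296 in Sham. Ifng had 1, 2, 2 and 1 counts summed over the 5 libraries of CLP+VNS, CLP, Sham+VNS and Sham. Ifna4, Ifna5, Ifnk and Ifnl1 had 0 to 3 counts per group. A count of 0 over a group allows a level of up to 0.042 to 0.0433 CPM, which is 3 counts of the group's total and covers counting error only. Ifnb1 was not in the table and is not analysed here.

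Among 10 receptor and JAK-STAT genes, 4 were higher and 1 lower in CLP against Sham, with the same counts without Sham replicate 2. Of all tested genes 19.8% were higher and 20.5% lower. The receptor subunit Ifnar1 stood at 0.08 ± 0.06 and Ifnar2 at 0.0014 ± 0.05 on the log2 scale, neither called. Both chains of the gamma receptor rose, Ifngr1 by 0.32 ± 0.06 (adjusted p = 0.000393) and Ifngr2 by 0.51 ± 0.07 (adjusted p = 6.94e-06), as did Il10rb, shared with the lambda and interleukin 10 receptors, by 0.42, and the kinase Jak2 by 0.76. The kinase Tyk2 fell by 0.17 (adjusted p = 0.00516). In CLP+VNS against Sham+VNS 4 of the 10 rose and 2 fell, where 13.9% of all tested genes rose and 13.4% fell. Among them Ifngr1 (0.25), Ifngr2 (0.33) and Jak2 (0.43) rose and Tyk2 (-0.22) fell as well.

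Among 16 genes that lead to interferon production, 4 rose and 1 fell in CLP against Sham, with and without Sham replicate 2, where 19.8% of all tested genes were called higher and 20.5% lower. In CLP+VNS against Sham+VNS 1 rose, Myd88 (0.71), and 0 fell, where 13.9% of all tested genes rose and 13.4% fell. The adaptor Myd88 rose by 0.80 (adjusted p = 1.02e-06), the lipopolysaccharide receptor Tlr4 by 0.48 (adjusted p = 0.00252), Tlr7 by 0.47 and the adaptor Ticam1 by 0.46. The double-stranded RNA receptor Tlr3 fell by 0.40 (adjusted p = 0.00655), and Irf3 was not called at -0.08. Among 17 negative regulators 8 rose and 2 fell in CLP against Sham, the same counts as without Sham replicate 2. The JAK inhibitor Socs1 rose by 0.59 ± 0.22 (adjusted p = 0.0408), at 4.53 ± 0.977 CPM in CLP and 3.01 ± 0.827 CPM in Sham (SD, n = 5 each). Socs3 rose by 1.26 ± 0.18 (adjusted p = 2.88e-05), Tnfaip3 by 0.87, and the phosphatases Ptpn6 and Ptpn1 by 0.65 and 0.63. Rnf125 (-0.54) and Pias1 (-0.16) fell. In CLP+VNS against Sham+VNS Socs1 rose by 1.17 (adjusted p = 0.000681) and Socs3 by 1.20.

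A further list of 42 interferon-induced genes outside the members held 40 that were tested. In CLP against Sham 12 fell and 9 rose, with a median of -0.17, where 20.5% of all tested genes fell and 19.8% rose. Leaving out Sham replicate 2, 8 fell and 8 rose, with a median of -0.13, where 18.8% of all genes fell. Gbp1 then no longer passed (-1.65, adjusted p = 0.0808). The lower ones included Gbp1 (-1.97 ± 0.69, adjusted p = 0.0285), Phf11 (-1.57 ± 0.38), Gbp3 (-1.36 ± 0.36) and the helicase Ddx60 (-1.15 ± 0.27). Ifitm1 (1.15 ± 0.12, adjusted p = 9.95e-07), the pyrimidine enzyme Upp1 (1.10 ± 0.14), the complement inhibitor Serping1 (0.60 ± 0.17) and Ifitm2 (0.60 ± 0.09) were among the higher ones. In CLP+VNS against Sham+VNS 6 of the 40 fell and 10 rose, with a median of -0.07, where 13.4% of all tested genes fell and 13.9% rose. There Ifitm1 (1.11), Upp1 (1.19), Serping1 (0.86) and Ifitm2 (0.58) rose too, whereas Gbp1, Phf11, Gbp3 and Ddx60 did not pass (-0.18, -0.67, -0.90 and -0.61).

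Cell type markers moved with the operation, where 20.5% of all tested genes fell and 19.8% rose in CLP against Sham. All 11 T cell markers fell in CLP against Sham, also without Sham replicate 2, and their summed level was 70.4 to 92.8 CPM in CLP+VNS, 67.7 to 78.8 in CLP, 97.4 to 138 in Sham+VNS and 120 to 186 in Sham, with no marker at 0 in any group. All 12 tested neutrophil markers rose, also without Sham replicate 2, with sums of 2114.1 to 5797.5 CPM in CLP+VNS, 4411.5 to 6207.2 in CLP, 315 to 782 in Sham+VNS and 375 to 1015.7 in Sham. Of the 8 alveolar type 1 markers 6 fell (5 without Sham replicate 2), with sums of 6703.7 to 8241.1 CPM in CLP+VNS, 5347.4 to 8383.0 in CLP, 9182.3 to 11352.1 in Sham+VNS and 7909.7 to 10816.4 in Sham. Plasmacytoid dendritic markers, from cells known for making interferon alpha, had 1 called higher and 1 lower of 6 tested (1 and 0 without Sham replicate 2). The one called higher was Tcf4 (0.51), and 4 of the 6 had negative log2 fold changes. Their sums over all 9 listed markers were 160 to 170 CPM in CLP+VNS, 130 to 170 in CLP, 109 to 145 in Sham+VNS and 110 to 126 in Sham. Monocyte and macrophage markers had 6 of 12 called higher (5 without Sham replicate 2), with overlapping sums. Of the genes around the receptor Cxcr3 the factor Tbx21 fell by 0.69 (adjusted p = 0.0102), or by 0.79 without Sham replicate 2, and Cxcr3 itself had -0.59 (adjusted p = 0.129). In RNA from whole lung, fewer cells of a type and less RNA per cell cannot be told apart, and the part of cell composition in the members' values was not tested.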

How the data were processed

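The authors deposited 1 table per gene and 1 per transcript of rat lung RNA-seq. Per the file headers these hold read counts, FPKM, TPM and a normalized signal; the deposited FPKM and signal columns were not used here. The authors' counts are estimated counts (91.52% of gene values are whole) and were rounded; the deposited TPM served to compare levels between genes. Per the submitters' processing notes the build is mRatBN7.2; the sources used here do not name the aligner, counter or annotation. Per the labels, libraries were poly(A)-selected and strand-specific.

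Genes were filtered with filterByExpr (minimum count 10), scaled by TMM and tested with edgeR 4.0.16 (R 4.3.3) by the quasi-likelihood test, with 4 group means over all 20 libraries (16 residual degrees of freedom), Benjamini-Hochberg adjusted over 14794 genes and called at an adjusted p below 0.05; all tests were two-sided. The script was tested on simulated data. DESeq2 1.42.0, other scalings and filters, 2-group fits, a replicate block and leaving out each library were tried. The groups are as labelled. In the main fit a p-value sets a group difference against the spread between animals within groups, estimated over all 4 groups together. The replicate numbers are taken from the titles; nothing says that equal numbers pair animals.

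The members, roles, lists and tests were chosen with earlier results of these data known. Values per animal are given for up to 3 called members per role (up to 4 in roles of at least 10 genes), by absolute log2 fold change in CLP against Sham, and for the transcription factors; list genes are Irf3, Ifnb1, Ifng, Ifnar1, Ifnar2, Ifngr1, Ifngr2, Socs1 and up to 4 called per list and direction. 1 further gene of that rule is not reported here. Sequences are from RefSeq, build GRCr8, which differs from the build of the counts and was used for names and promoters only. Markers of natural killer cells (2 of 10 lower, 0 higher), B cells (4 of 8 lower), alveolar type 2 cells (3 of 8 higher), endothelium (1 of 8 higher, 4 lower), adipocytes (3 of 4 tested lower), erythroid cells (1 of 6 lower) and cardiac muscle (4 of 4 tested lower) were also read in CLP against Sham. Of all tested genes 20.5% were lower and 19.8% higher there. Without Sham replicate 2 the calls were 1 lower for natural killer cells, 0 for erythroid cells and 5 of 5 tested for cardiac muscle, with no other count changed.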

Additional observations from a re-analysis of the deposited data

Results flagged for a closer look

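Within each group of 5 animals, 180 sets of a member's values were examined for a highest or lowest animal whose gap to its nearest neighbour exceeded Dixon's critical share of the range (0.71), and 23 were found. The usual chance rate of about 1 in 20 is for independent sets. The members vary together in the same animals, so the 23 cannot be set against it. In 13 of these the animal was Sham replicate 2.

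Sham replicate 2 was far above the other 4 Sham animals for Mx2 (204 CPM, others 35.3 to 65.3), Mx1 (79.3 CPM, others 22.1 to 28.9), Isg15 (32.7 CPM, others 9.53 to 14.2), Usp18 (34 CPM, others 10.2 to 15.1), Rsad2 (34.2 CPM, others 9.17 to 15.1), Cmpk2 (34.8 CPM, others 15.4 to 20.6) and Rtp4 (55.9 CPM, others 26 to 34.6). The same held for Ifi44 (79.1 CPM, others 50.5 to 57.8), Gbp4 (11 CPM, others 3.8 to 5.79), Gbp2 (114 CPM, others 82.3 to 90.8), Ifi47 (68.1 CPM, others 49.7 to 52.6), Igtp (58.3 CPM, others 36.9 to 40) and Parp14 (165 CPM, others 114 to 128).

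CLP+VNS replicate 5 was high for Rsad2 (25.3 CPM, others 5.83 to 10.5), Trim25 (44.9 CPM, others 38.2 to 39.6) and Cxcl11 (0.577 CPM, others 0.0713 to 0.14). CLP replicate 3 was high for Ifit3 (48.6 CPM, others 29.2 to 32.8) and Isg20 (17.7 CPM, others 14 to 15), CLP replicate 4 for Dtx3l (84.4 CPM, others 66.1 to 69.8), and CLP replicate 5 was low for Xaf1 (11 CPM, others 18 to 20.1). Sham+VNS replicate 4 was high for Gbp2 (90.3 CPM, others 68 to 71.7) and Gbp4 (7 CPM, others 3.57 to 4.52), and Sham+VNS replicate 1 for Trim25 (41.5 CPM, others 35.1 to 36.7).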

How the results depend on the processing

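Leaving out single animals, members called lower ran from 11 (without Sham replicate 2) to 20 in CLP against Sham and from 3 to 13 (without CLP+VNS replicate 3) in CLP+VNS against Sham+VNS, where members called higher ran from 0 to 1. All genes called ran from 0 to 277 (without CLP+VNS replicate 1) in CLP+VNS against CLP, 0 to 2 (without Sham replicate 3) in Sham+VNS against Sham and 0 to 3 (without CLP+VNS replicate 1) in the interaction. Nothing says whether the replicate numbers pair the animals. Same-numbered libraries had correlations of -0.143 to 0.178 in their deviations from the group means, which cannot exclude a shared day or batch. With the replicate block, 8 members fell in CLP against Sham (18.2%, against 15.8% of all genes, a smaller excess than the 38.6% against 20.5% without it), 1 member fell and 2109 genes were called in CLP+VNS against Sham+VNS, and 0 genes were called in CLP+VNS against CLP; signs turned for Ifit2 (0.01), Oasl (0.06), Herc6 (0.11) and Cxcl9 (-0.06) in CLP against Sham and for Xaf1 (0.08) and Gbp4 (0.05) in CLP+VNS against Sham+VNS. DESeq2 called 128 genes in CLP+VNS against CLP, 6 in Sham+VNS against Sham and 6 in the interaction. Scaling by total count alone gave 23 lower members in CLP against Sham, against 25.4% of all genes, turned Irf9 (-0.03) and Stat2 (-0.05), and called 0 genes in CLP+VNS against CLP and 0 members higher in CLP+VNS against Sham+VNS; a stricter count filter turned Stat2 (-0.0018). Fits of only the 2 groups compared gave 1 higher member in CLP against Sham, 0 in CLP+VNS against Sham+VNS, 0 genes in CLP+VNS against CLP and 1 in Sham+VNS against Sham. The averaged operation contrast gave 1 higher member. Leaving out 1 library, signs changed in CLP against Sham for Ifit2 (-0.26 to 0.02), Oasl (-0.34 to 0.06), Irf9 (-0.04 to 0.09), Stat2 (-0.06 to 0.05), Ifih1 (-0.16 to 0.03), Herc6 (-0.21 to 0.17), Dtx3l (-0.00041 to 0.17) and Cxcl10 (-0.30 to 0.07), in CLP+VNS against Sham+VNS for Irf1 (-0.03 to 0.08) and Cxcl10 (-0.08 to 1.22), and in Sham+VNS against Sham for Mx2 (-0.67 to 0.25). With no filter on low counts Cxcl11 was called lower in CLP against Sham. The causes were not tested. At this depth Cxcl11 and the interferon ligands were too low for the count test.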
